A study of Mus musculus with 11 samples.

Results

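Mast cells are tissue-resident cells of the allergic response. They carry the high-affinity IgE receptor, whose alpha chain binds IgE and whose beta and gamma chains carry the signal into the cell, and they store histamine and serine proteases in their granules. When an allergen cross-links IgE on the receptor, these granules are released. The RNA-seq data list 21899 genes, of which 9 genes of this cell type were followed here. Among the proteases of the granule are chymases (Cma1, Mcpt4) and tryptases (Tpsb2, Tpsab1), and Cpa3 is the carboxypeptidase stored beside them. Ms4a2 and Fcer1a encode the beta and the alpha chain of the IgE receptor. Kit encodes the receptor for stem cell factor, on which mast cells depend, and Hdc encodes histidine decarboxylase, which makes histamine. The genes were taken by name and not by their values, and all 9 were present in the file.

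The libraries were made from airways of male wild-type BALB/c mice aged 6 to 8 weeks. PBS mice (3 libraries) were not sensitised and received PBS only. OVA/LPS/Vehicle (OL) mice (4 libraries) were sensitised with ovalbumin (OVA) in alum on days 0 and 7, challenged with OVA through the nose on days 14 to 17, and given bacterial lipopolysaccharide (LPS) through the nose on days 19 and 21. OVA/LPS/GGsTop (OLG) mice (4 libraries) had the same treatment and received GGsTop, an inhibitor of γ-glutamyl transferase, at 0.5 mg/kg into the trachea on days 21 to 23, where the OL mice received its vehicle. The endpoint was day 25 in all groups. The numbers 12, 34, 56 and 78 name the OL libraries, and the sources used here do not say how many mice went into one library. Nothing in the labels says that the libraries came from separate animals, so the p-values measure the spread between libraries. The labels name trachea as the tissue, whereas the study's methods describe bluntly dissected airway from which the trachea was left out.

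Levels are FPKM, the fragments of a gene per kilobase of exon, scaled to the size of the library. The totals of fragments that the FPKM steps imply lay between 14513136 and 18632382. Differences are log2 fold changes of FPKM + 1 from a single limma fit of the 11 libraries with p-values adjusted over the 14004 genes that averaged 0.5 FPKM or more, and called means an adjusted p under 0.05. Fold changes on this scale understate the change of low genes. Of the 9 genes, 8 passed this filter, and Fcer1a did not. In bulk tissue, fewer mast cells and less RNA per mast cell cannot be told apart.

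The libraries also differed in base composition and in tissue content. The slope of a library's deviations against the GC content of the genes was −0.261 to −0.190 log2 units per 10 points of GC for the OL libraries and 0.0464 to 0.108 for the OLG libraries, and in PBS it was 0.0484, 0.0611 and, in the library PBS 3, 0.533. Summed cartilage and fat markers were the highest of their groups in PBS 2 and OLG 4 and the lowest in PBS 3 and OLG 3.

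By mean FPKM over the 11 libraries, Kit (25.5) and Hdc (15.7) were the most abundant of the genes, followed by Cpa3 (5.59), Mcpt4 (1.97), Cma1 (1.52), Tpsb2 (1.37), Ms4a2 (0.674), Tpsab1 (0.592) and Fcer1a (0.324). The granule and receptor genes that define the cell type were thus low in this tissue, and their values rested on few fragments. Cpa3 had 81 to 198 fragments per library, Ms4a2 6 to 56, and Fcer1a 1 to 12. Basophils share several of these genes, and 4 of their 5 markers were in the file. Mcpt8, the basophil protease, lay between 0.215 and 0.970 FPKM, and Cd200r3 between 0.00897 and 0.304 FPKM. In PBS, OL and OLG in turn, their group means were 0.402, 0.710 and 0.352 FPKM, and 0.0719, 0.253 and 0.132 FPKM. Il3ra, the interleukin-3 receptor chain, was higher, at 2.87 to 6.55 FPKM, and it is also found on endothelium and other cells. Its group mean was lowest in OL (4.83, 3.38 and 4.74 FPKM in the same order). The part of basophils in the values of Ms4a2 was not tested.

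**Figure D1:**
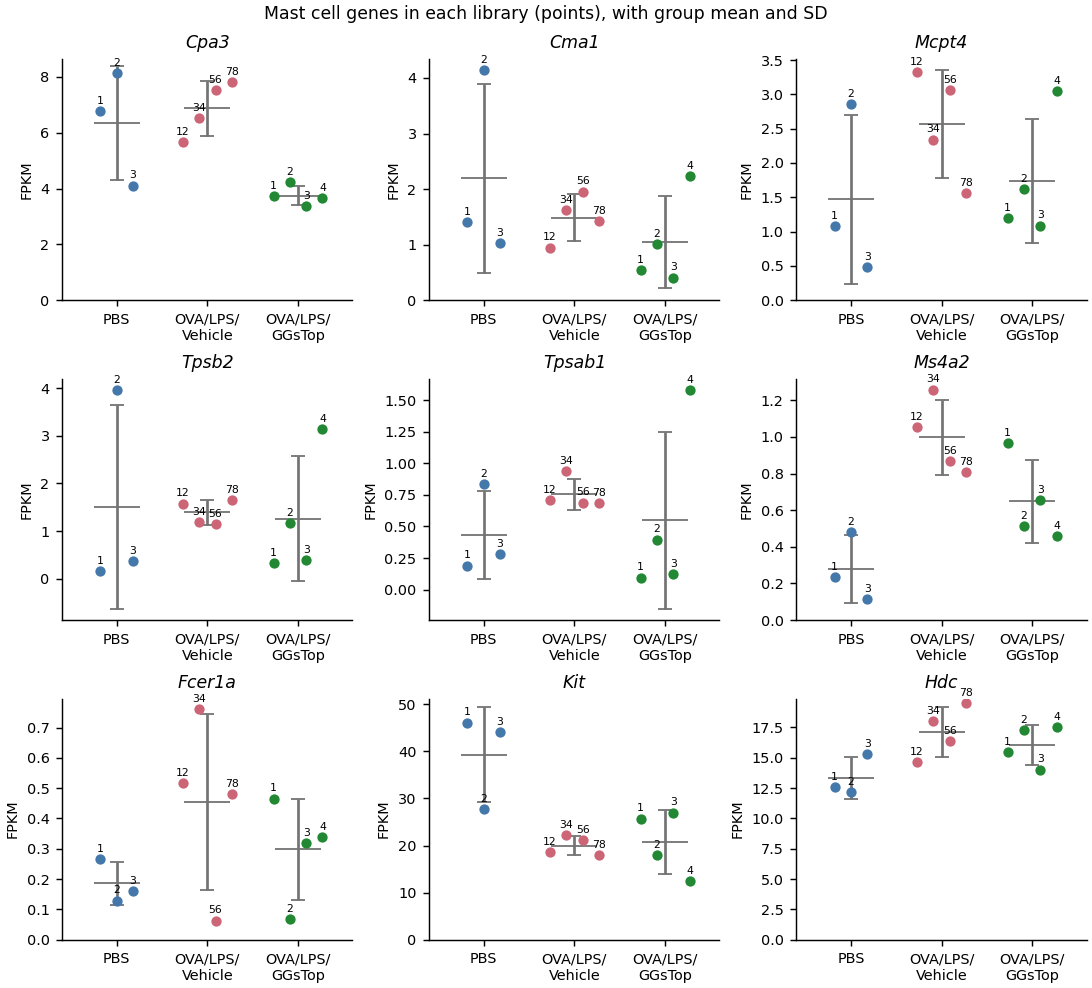
FPKM of the 9 genes in each library (points, numbered as in the labels) in the PBS, OL and OLG groups, with the group mean and SD in grey. Cpa3 was at most 4.22 FPKM in the OLG libraries and at least 5.66 in the OL libraries, while the chymases and tryptases had single high libraries in the PBS and OLG groups.

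Ms4a2 and Cpa3, each called in a comparison described next, are shown by the 250 bases before their start sites, because GATA factors direct mast cell genes and both windows held their motif. The words AGATAA and TGATAA and also AGATAG and TGATAG were searched on both strands and are in capitals, those on the other strand as their reverse complement. Sequences are those of RefSeq on GRCm38.p6, written 5′ to 3′ on the minus strand, which is that of both genes, from chr3:20242182-20242431 for Cpa3 and chr19:11623720-11623969 for Ms4a2.
Cpa3: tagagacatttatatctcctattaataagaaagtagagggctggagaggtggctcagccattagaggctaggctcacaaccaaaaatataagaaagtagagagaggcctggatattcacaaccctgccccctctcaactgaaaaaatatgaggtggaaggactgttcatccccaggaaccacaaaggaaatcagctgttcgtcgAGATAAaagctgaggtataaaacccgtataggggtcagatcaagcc
Ms4a2: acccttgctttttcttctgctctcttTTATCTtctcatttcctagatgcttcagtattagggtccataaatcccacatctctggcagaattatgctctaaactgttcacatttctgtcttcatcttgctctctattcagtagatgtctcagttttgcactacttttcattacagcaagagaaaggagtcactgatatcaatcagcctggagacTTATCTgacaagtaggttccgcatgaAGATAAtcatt
Ms4a2 held 3 of these words and Cpa3 held 1. The RefSeq table held 7 of the 9 genes, and 6 of these 7 had a word in the window. The exception was Kit, which was also called and whose window is not printed. Of all 27025 promoters of the same length, 27.1% held a word. A match of letters is a description of the window and not a site of binding.

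The first comparison asked how OVA sensitisation and challenge, together with LPS and vehicle, changed these genes. The parts of this treatment cannot be told apart. In the OL group against PBS, Ms4a2 was higher and Kit was lower, and the other 6 genes tested were not called. That is 2 of 8 genes, in a comparison that called 38% of all genes tested. Groups did not overlap for 2 of the 8 genes, against 44.1% of all genes tested.

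Ms4a2 (ENSMUSG00000024680, chr19:11615523-11623719 on GRCm38, minus strand) was 0.236, 0.482 and 0.114 FPKM in PBS 1, 2 and 3. In the OL libraries 12, 34, 56 and 78 it was 1.05, 1.26, 0.870 and 0.808 FPKM, and in OLG 1 to 4 it was 0.968, 0.514, 0.653 and 0.456 FPKM. Every OL library was above every PBS library, and OLG libraries overlapped both other groups. The log2 fold change for OL against PBS was 0.65 (SE 0.15, limma adjusted p = 0.00875), and the call held whichever of the 7 libraries was left out. By mean the groups ranked OL, OLG, PBS, and OLG was not called against OL (−0.28, limma adjusted p = 0.185) or against PBS (0.37, limma adjusted p = 0.194, unadjusted p = 0.0297). For OL against PBS, voom on the recovered fragments, which adds no FPKM, gave 2.03 (limma adjusted p = 0.00829). The transcript of Ms4a2 is low in GC (37.6%). After correction for GC content the fold change for OL against PBS was 0.04 (limma adjusted p = 0.845).

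Fcer1a (ENSMUSG00000005339, chr1:173221284-173227214, minus strand) was 0.266, 0.129 and 0.161 FPKM in the PBS libraries. It was 0.517, 0.761, 0.0629 and 0.480 FPKM in the OL libraries and 0.466, 0.0690, 0.318 and 0.339 FPKM in the OLG libraries. All 3 groups overlapped, and the lowest value, in OL 56, was a single fragment. The difference in mean log2(FPKM + 1) was 0.27 for OL against PBS (exact two-sided permutation test, p = 0.229), −0.15 for OLG against OL (exact permutation p = 0.400) and 0.12 for OLG against PBS (exact permutation p = 0.400). The smallest p that this test can give is 0.0571 for either comparison with PBS. That is above the threshold for a call, so these tests could not decide whether Fcer1a differed from PBS. For OLG against OL, where the smallest possible p is 0.0286, no difference was detected at this depth. The gene that follows is the most abundant of the 9.

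Kit (ENSMUSG00000005672, chr5:75574916-75656722, plus strand) was 46.1, 27.7 and 44.0 FPKM in PBS 1 to 3. In the OL libraries it was 18.6, 22.2, 21.1 and 17.9 FPKM, and in the OLG libraries 25.7, 18.0, 27.0 and 12.4 FPKM. All 3 PBS libraries were above all libraries of the other groups, and those groups overlapped each other. The means were 39.3 ± 10.1 FPKM (SD, n = 3) for PBS, 19.9 ± 2.02 (SD, n = 4) for OL and 20.8 ± 6.85 (SD, n = 4) for OLG. The fold change of Kit was −0.91 for OL against PBS (SE 0.25, limma adjusted p = 0.0165), and it was lost without PBS 1 (−0.78, limma adjusted p = 0.0575) and without PBS 3 (−0.82, limma adjusted p = 0.0701). Between OLG and OL it was 0.00 (95% interval −0.50 to 0.51).

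Kit is also made by other cells of the airway and lung, among them a class of capillary endothelium. The 5 genes whose log2(FPKM + 1) followed Kit most closely over the 11 libraries were Cyth3 (Pearson r = 0.984), Sptbn1 (0.975), Hsd11b1 (0.974), Cdh5 (0.973) and Adgrf5 (0.972). Cdh5 is the cadherin of endothelial junctions. The points of these correlations are the same libraries and share their tissue content and base composition. The 8 markers of capillary endothelium summed to 1042 to 1846 FPKM in the PBS libraries, 778 to 976 in the OL libraries and 553 to 1281 in the OLG libraries. Of these markers, 7 were lower and 3 were called lower for OL against PBS (Aplnr, Cdh5 and Cldn5), beside 38% of all genes tested, and their part in the result for Kit was not tested. Of all 14004 genes tested, 7151 were lower and 3096 were called lower in this comparison. Melanocytes also carry Kit, and their 5 markers summed to 1.19 to 5.03 FPKM, of which Mlana was the most abundant (0.314 to 4.03 FPKM), while Tyr, which makes melanin, was listed at 0 in every library.

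Hdc (ENSMUSG00000027360, chr2:126593667-126619299, minus strand) was 12.6, 12.2 and 15.3 FPKM in the PBS libraries. It was 14.6, 18.0, 16.4 and 19.5 FPKM in the OL libraries and 15.5, 17.3, 14.03 and 17.5 FPKM in the OLG libraries. The groups overlapped through PBS 3, the highest PBS library. The fold change for OL against PBS was 0.34 (SE 0.12, limma adjusted p = 0.0519), and it passed the threshold without PBS 3 (0.43, limma adjusted p = 0.0338) and without OL 12 (0.41, limma adjusted p = 0.0337). It also passed with a filter at 1 FPKM (limma adjusted p = 0.0498) and with libraries weighted by quality (0.47, limma adjusted p = 0.00102). The latter setting called 7916 of all 14004 genes tested. Hdc was thus called in 2 of the 7 fits with a library left out (0.28 to 0.43, limma adjusted p up to 0.133). It was called in 2 of 10 other settings (0.17 to 0.47, limma adjusted p up to 0.254). By mean the groups ranked OL, OLG, PBS. OLG lay within the range of OL, and 3 of its 4 libraries were above every PBS library (0.25 for OLG against PBS, limma adjusted p = 0.275). Hdc had the narrowest range of the 9 genes, with its highest library 1.60-fold above its lowest. Neutrophils and cells of the stomach also make histidine decarboxylase. The neutrophil markers summed to 112 to 357 FPKM in the PBS libraries, 139 to 263 FPKM in the OL libraries and 152 to 303 FPKM in the OLG libraries. Of the 8 stomach markers, Lipf, the gastric lipase, was 60.03, 219, 590.2 and 0.254 FPKM in the OL libraries and at most 2.45 FPKM in the others, while Tff1, Gast and Gkn1 were listed at 0 in every library and the remaining 4 were at most 0.776 FPKM. The part of these cells in the values of Hdc was not tested. Over the 11 libraries, as a description, Pearson's r of Hdc was −0.084 with Cpa3, −0.129 with Cma1 and 0.122 with Mcpt4. It was 0.143 with Tpsb2, 0.392 with Tpsab1, 0.400 with Ms4a2 and −0.647 with Kit.

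The second comparison asked how GGsTop changed these genes in OVA/LPS-treated mice. Cpa3 was lower in the OLG group, and the other 7 genes tested were not called. That is 1 of 8 genes, where 8.71% of all genes tested were called. Groups did not overlap for Cpa3 alone among the 8, against 29.7% of all genes tested. Fold changes were below 0 for 7 of the 8 genes and for 6457 of all 14004 genes tested. The median was −0.28 for the 8 genes and 0.03 over all genes tested. The number below 0 was 6 with the libraries set to the same FPKM total and 8 with the same median. Each of the comparisons with the OL group uses the same 4 libraries of that group.

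Cpa3 (ENSMUSG00000001865, chr3:20215620-20242181, minus strand) was 6.78, 8.12 and 4.10 FPKM in PBS 1 to 3. In the OL libraries it was 5.66, 6.51, 7.53 and 7.81 FPKM, and in the OLG libraries 3.72, 4.22, 3.38 and 3.65 FPKM. Every OLG library was below every OL library, and PBS 3 lay within the range of the OLG group. The group means were 6.34 ± 2.05 FPKM (SD, n = 3) for PBS, 6.87 ± 0.987 (SD, n = 4) for OL and 3.75 ± 0.351 (SD, n = 4) for OLG. The fold change for OLG against OL was −0.72 (SE 0.17, limma adjusted p = 0.0292). An exact two-sided permutation test of this gene alone gave p = 0.0286, the smallest that 4 against 4 libraries allow.

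The call for Cpa3 was kept without OL 12 and without OLG 4. It was lost with any other of the 8 libraries left out (OL 34, 56 or 78, or OLG 1, 2 or 3), with fold changes of −0.80 to −0.67 and limma adjusted p-values of 0.0371 to 0.0968 over the 8 fits. Over all genes tested, the number called in these fits was 24 to 1052, against 1220 with all 11 libraries. Cpa3 has a GC content of 41.3%, and after correction for GC content the fold change was −0.44 (limma adjusted p = 0.0734). For OLG against PBS it was −0.59 (SE 0.18, limma adjusted p = 0.0971), and −0.76 after GC correction (limma adjusted p = 0.00872). OL against PBS gave 0.13 (SE 0.18, limma adjusted p = 0.562).

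**Figure D2:**
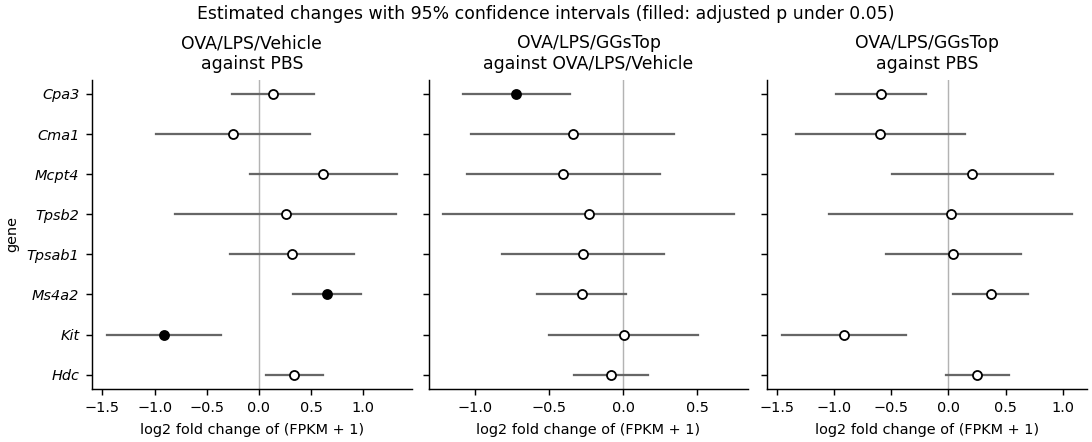
Log2 fold changes of FPKM + 1 (points) with 95% confidence intervals (lines) for the 8 genes tested, in the 3 comparisons; filled points had a limma adjusted p under 0.05. Ms4a2 (0.65) and Kit (−0.91) are filled for OL against PBS, Cpa3 (−0.72) for OLG against OL, and none for OLG against PBS.

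The chymases and tryptases did not pass the test in any comparison, though 3 of them did for OL against PBS when limma weighted the libraries by quality (Mcpt4 0.55, Tpsb2 0.83 and Tpsab1 0.50). With these weights 7916 of all 14004 genes tested were called for OL against PBS. Mcpt4 (ENSMUSG00000061068, chr14:56059629-56062313, minus strand), a connective tissue chymase, was 1.08, 2.85 and 0.484 FPKM in the PBS libraries, 3.32, 2.34, 3.06 and 1.57 in the OL libraries and 1.20, 1.62, 1.09 and 3.05 in the OLG libraries. Cma1 (ENSMUSG00000022225, chr14:55941451-55944675, minus strand), the alpha-chymase, was 1.40, 4.14 and 1.03 FPKM, 0.947, 1.63, 1.96 and 1.43 FPKM, and 0.548, 1.01, 0.407 and 2.23 FPKM in the same order. For both genes PBS 2 and OLG 4 were the highest libraries of their groups. The group order by mean was OL, OLG, PBS for Mcpt4 and PBS, OL, OLG for Cma1, and no neighbours in either order differed beyond their spread.

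Tpsb2 (ENSMUSG00000033825, chr17:25366305-25369098, plus strand), the beta-tryptase, was 0.167, 3.97 and 0.370 FPKM in the PBS libraries, 1.58, 1.19, 1.14 and 1.65 in the OL libraries and 0.333, 1.17, 0.398 and 3.14 in the OLG libraries. Its neighbour Tpsab1 (ENSMUSG00000024173, chr17:25343245-25345562, minus strand) was 0.190, 0.832 and 0.282 FPKM, 0.709, 0.937, 0.689 and 0.686 FPKM, and 0.0951, 0.395, 0.121 and 1.58 FPKM. The OL libraries were close together, while PBS and OLG each held a high library (PBS 2, OLG 4) among low ones. By mean Tpsb2 ranked PBS (1.501 FPKM), OL (1.39), OLG (1.26) and Tpsab1 ranked OL (0.755), OLG (0.548), PBS (0.435), and no neighbours differed beyond their spread. The PBS mean of Tpsb2 rests on PBS 2, and on the log2 scale of the fit PBS lay below both other groups (0.25 for OL against PBS and 0.02 for OLG against PBS). Tpsb2 spread most of the 9 genes, with its highest library 23.8-fold above its lowest. The transcripts of Tpsb2 and Tpsab1 were identical at 75.1% of aligned bases with a longest shared run of 23 bases, and those of Cma1 and Mcpt4 at 71.4% with a run of 27 bases.

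For OL against PBS the fold changes were 0.62 for Mcpt4 (limma adjusted p = 0.145), 0.31 for Tpsab1 (0.363), 0.25 for Tpsb2 (0.692) and −0.25 for Cma1 (0.568). Without PBS 2 that of Mcpt4 was 0.995 (limma adjusted p = 0.0168), in a fit that called 6440 of all 14004 genes tested. This was the 1 call for Mcpt4 in the 7 fits with a library left out (0.31 to 0.995, limma adjusted p up to 0.522). For OLG against OL they were −0.41 for Mcpt4 (limma adjusted p = 0.368), −0.34 for Cma1 (0.475), −0.27 for Tpsab1 (0.476) and −0.24 for Tpsb2 (0.751). Intervals were wide, and that of Tpsb2 reached from −1.22 to 0.75.

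PBS 2 and OLG 4, the highest libraries of their groups for these 4 genes, were also the highest of their groups for markers of cartilage and fat. Over the 11 libraries, as a description, Pearson's r was 0.856 for Tpsb2 with Tpsab1, 0.784 for Mcpt4 with Tpsab1 and 0.775 for Cma1 with Tpsb2, and 0.579 for Cma1 with Mcpt4. For Cpa3 it was 0.638 with Cma1, 0.403 with Mcpt4, 0.340 with Tpsb2, 0.303 with Tpsab1 and 0.195 with Ms4a2. The 10 genes most like the mean profile of the 5 proteases and Ms4a2 were Thbs4 (r = 0.963), Bche (0.960), Otor, Jam2, Col8a1, Lum, Itih5, Edn2, Akr1c18 and Ptn (0.936). Lum is a proteoglycan of connective tissue. The 6 cartilage markers summed to 64.5, 143 and 13.9 FPKM in PBS 1 to 3, to 46.7 to 96.5 FPKM in the OL libraries and to 53.2, 90.9, 20.8 and 247 FPKM in OLG 1 to 4. Acan, the cartilage proteoglycan, was listed at 0 in PBS 3, OLG 1 and OLG 3, and reached 20.4 FPKM in PBS 2 and 23.04 FPKM in OLG 4. The 6 adipocyte markers summed to 30.0 to 384 FPKM in the PBS libraries, 304 to 938 in the OL libraries and 22.1 to 426 in the OLG libraries. Their part in the protease values was not tested. Cpa3 ranked PBS 2, 1, 3 as both sums did (8.12, 6.78 and 4.10 FPKM), and in the OLG group, where it lay between 3.38 and 4.22 FPKM, its highest library was OLG 2.

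**Figure D3:**
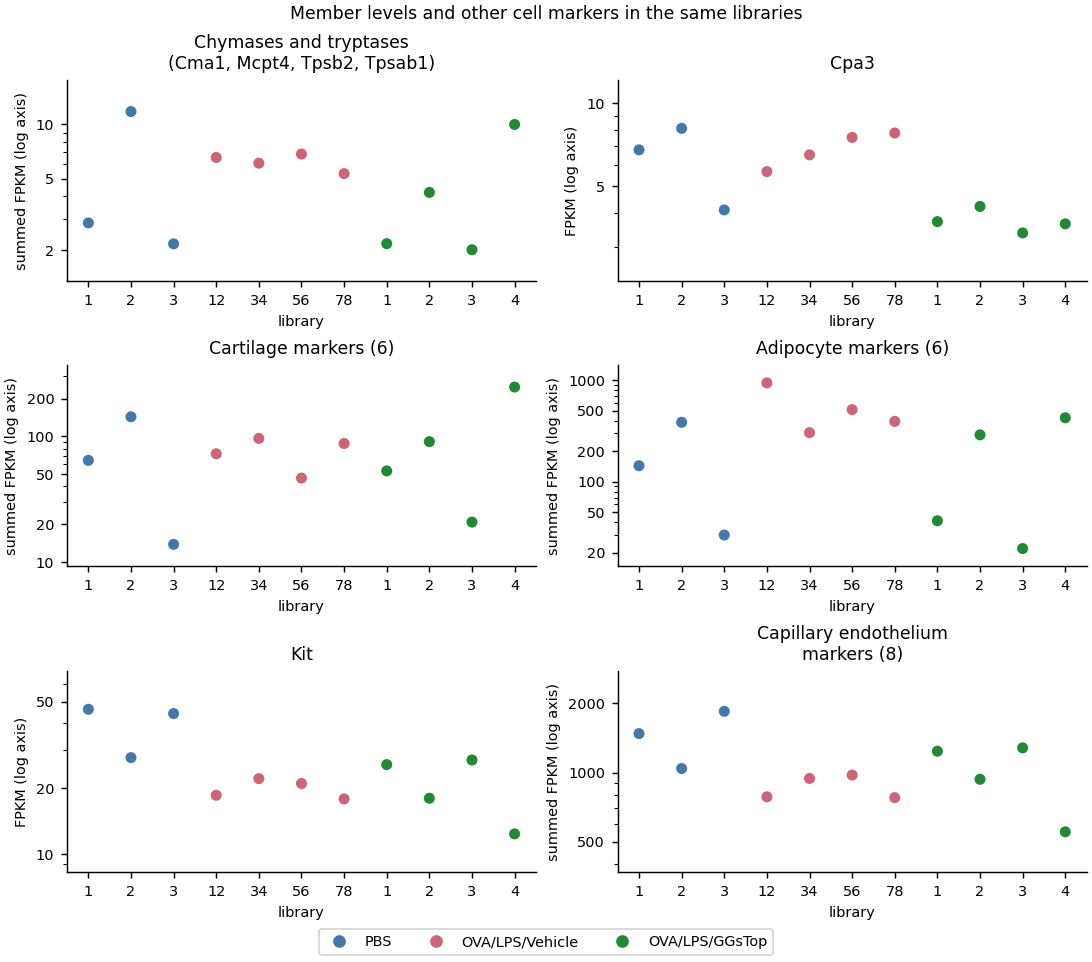
FPKM or summed FPKM (log axes) in each library for the 4 chymases and tryptases, Cpa3, 6 cartilage markers, 6 adipocyte markers, Kit and 8 capillary endothelium markers, coloured by group. PBS 2 and OLG 4 are the highest libraries of their groups for the chymases and tryptases, the cartilage markers (143 and 247 FPKM) and the adipocyte markers (384 and 426 FPKM), and Cpa3 stays low in all 4 OLG libraries.

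Ratios between the genes were formed within each library. Kit is made by other cells too, so its ratio to Cpa3 can move with the number of mast cells. Ms4a2 was 0.0348, 0.0593 and 0.0279 of Cpa3 in the PBS libraries, 0.187, 0.194, 0.116 and 0.103 in the OL libraries and 0.260, 0.122, 0.193 and 0.125 in the OLG libraries. The ratio was higher in every library of either OVA/LPS group than in any PBS library. The difference of its log2 was 1.90 for OL against PBS and 2.11 for OLG against PBS, each with an exact two-sided permutation p of 0.0571, the smallest that 3 against 4 libraries allow, and an adjusted p of 0.171 over the 9 ratio tests. OLG against OL gave 0.21 (exact permutation p = 0.514). With 1 FPKM added to each gene, the first of these differences was 0.52 and the second 0.96. No ratio was formed after the correction for GC content. For OL against PBS that correction took the fold change of Ms4a2 from 0.65 to 0.04 and that of Cpa3 from 0.13 to −0.32. The part of base composition in the ratio was not tested.

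Kit over Cpa3 was 2.29 to 3.41 in the OL libraries and 3.39 to 7.98 in the OLG libraries, a log2 difference of 0.87 (exact permutation p = 0.0571, adjusted 0.171). The OL and OLG ranges met at their ends, and the PBS libraries lay between 3.41 and 10.7. Tryptases over chymases overlapped in all groups, from 0.144 to 0.686 in PBS, 0.365 to 0.781 in OL and 0.245 to 0.893 in OLG, with exact permutation p-values of 0.514 to 0.743 in the 3 comparisons.

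**Figure D4:**
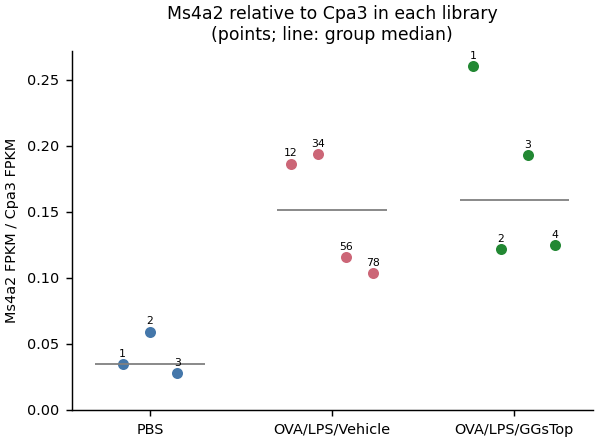
Ms4a2 FPKM divided by Cpa3 FPKM in each library (points, numbered as in the labels), with the group median as a line. The 3 PBS libraries lie between 0.0279 and 0.0593, below all 8 libraries of the OVA/LPS groups.

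The third comparison set OLG against PBS. None of the 8 genes was called by limma on log2(FPKM + 1) or by voom, where 2.88% of all genes tested were called. An unadjusted p under 0.05 was found for 3 of the 8, and for 20.5% of all genes tested. The 3 genes were Cpa3 (−0.59), Kit (−0.91, limma adjusted p = 0.0710) and Ms4a2 (0.37, limma adjusted p = 0.194). Kit was the gene of the 8 whose groups did not overlap, as was the case for 14.8% of all genes tested, and it was called without PBS 2 (−1.14, limma adjusted p = 0.0191) and without OLG 3 (−1.05, limma adjusted p = 0.0359). Cpa3 was called without PBS 3 (−0.83, limma adjusted p = 0.0380). PBS and OLG share replicate numbers, and with the replicate number as a block none of the 8 genes was called, while the block together with the GC correction called Cpa3 (−0.76) and Kit (−0.75), each at a limma adjusted p of 0.0287.

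Other genes of the mast cell granule and identity were read from a list of 24, of which 14 passed the filter. For OL against PBS, 5 were called higher and 1 lower, 6 of 14 beside the 38% of all genes tested. The counts were 0 and 1 with the GC correction, where Rab27b turned to −0.11, and 2 and 2 with the same FPKM total. Over all genes tested they were 1101 and 1803 with the GC correction and 1232 and 4570 with the same FPKM total. Il1rl1, the receptor for interleukin-33, rose by 0.55 (SE 0.18, limma adjusted p = 0.0351), and Srgn, the serglycin core protein of granules, rose by 0.52 (limma adjusted p = 0.0303). The other genes called higher were Rab27b (0.48), a GTPase of granule release, Hpgds (0.45), the prostaglandin D2 synthase, and Mcpt2 (0.97), a mucosal protease. Mcpt2 averaged 0.142 FPKM in PBS, 1.27 in OL and 0.349 in OLG, and only OL lay above the 0.5 FPKM of the filter. Its place among the 5 thus depends on the filter. The PBS libraries reached 0.426 FPKM and the OL libraries began at 0.414, so the groups overlapped. Ndst2, which sulfates heparin, fell by 0.70 (limma adjusted p = 0.00366). Kitl, which encodes stem cell factor, and Gata2, a transcription factor of the lineage, were not called (0.75 and −0.36), and with Srgn they were the most abundant of the list.

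For OLG against OL, Ndst2 was higher (0.44, SE 0.11, limma adjusted p = 0.0312) and Rab27b was lower (−0.44, SE 0.12, limma adjusted p = 0.0467). With the GC correction neither was called (0.22, limma adjusted p = 0.209, and −0.07, limma adjusted p = 0.750), Ndst2 was lost with the same median (limma adjusted p = 0.0597) and Rab27b with the same FPKM total (limma adjusted p = 0.0638). Il1rl1 was 1.32 to 3.01 FPKM in the OL libraries and 1.86 to 2.78 in the OLG libraries, and it was the gene of the list called for OLG against PBS (0.78, limma adjusted p = 0.0453), a call lost with the GC correction (0.64, limma adjusted p = 0.0775). Mcpt1, the mucosal chymase, was under the filter, and was singled out after its values were seen. It was at most 0.318 FPKM in the PBS libraries, 0.433 to 1.43 in the OL libraries and 0.0680 to 0.267 in the OLG libraries, and the difference between the OVA/LPS groups was −0.64 (exact permutation p = 0.0286, adjusted 0.386 over 27 tests). Tpsg1, a membrane-anchored tryptase, was also under the filter and differed by 0.15 with the same p, at no more than 0.389 FPKM in any library. The Mcpt1 and Mcpt4 transcripts were identical at 85.7% of aligned bases.

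Signalling genes of the IgE receptor were read from a list of 22, all above the filter. Fcer1g, the gamma chain that the receptor shares with other Fc receptors, was 16.0 to 24.6 FPKM in the PBS libraries, 15.4 to 26.7 in the OL libraries and 17.2 to 25.9 in the OLG libraries, and its fold change was 0.05 for OL against PBS. For that comparison 4 of the 22 genes were called, a smaller share than the 38% of all genes tested. All 4 were lower, the phospholipase Plcg1 (−0.69, limma adjusted p = 0.0108), the adaptor Gab2 (−0.38, 0.0132), the exchange factor Rasgrp4 (−0.49, 0.0345) and the phosphatase Ptpn6 (−0.44, 0.0430). These genes are used by many cells of the airway. The most abundant of the list were Vamp8, Grb2 and Stx4a (−0.36, 0.04 and −0.31), which were not called. No gene of this list was called by limma or by voom for OLG against OL (4 at an unadjusted limma p under 0.05) or against PBS (2). Of all 14004 genes tested, 4319 and 2873 had an unadjusted limma p under 0.05 in these comparisons. With the same FPKM total, 1 was higher for OLG against OL and 8 were lower for OL against PBS, and with the GC correction 1 was lower for OL against PBS. The same counts over all genes tested were 2026 and 4570 of 14004, and 1803 of 13987 with the GC correction.

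Histamine is broken down by the products of Hnmt and Aoc1. Hnmt rose from 3.22 to 5.78 FPKM in the PBS libraries to 7.71 to 10.2 in the OL libraries (0.84, SE 0.16, limma adjusted p = 0.00511), and in the OLG libraries it was 6.15 to 7.87. Aoc1 rose by 1.30 in the same comparison (SE 0.34, limma adjusted p = 0.0143). They were the 2 called of the 4 genes tested from this list of 8, beside 38% of all genes tested. With the GC correction Aoc1 kept its call (1.44, limma adjusted p = 0.0180) and Hnmt lost it (0.24, limma adjusted p = 0.129). Neither was called for OLG against OL (−0.35 and −0.13). The organic cation transporter Slc22a3 was not called in any comparison, and the 4 histamine receptor genes were under the filter. Slc18a2, which loads amines into granules, was 7.61 FPKM in OL 12 and at most 1.54 FPKM in the other libraries.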

How the data were processed

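RNA-seq of mouse airway covered 11 libraries (3 PBS, 4 OL, 4 OLG), grouped by their labels. The authors deposited FPKM for each library, a gene's fragments per kilobase of exon scaled to library size. The submitters' processing notes name cutadapt 1.15, HISAT2 2.0.5, HTSeq 0.9.1 and the build mm39, whereas gene lengths, GC content and coordinates here are those of GENCODE M21 on GRCm38, and nothing was converted. The study's methods name a count model, and as FPKM were deposited, log2(FPKM + 1) was tested with limma 3.58.1 in R 4.3.3 instead, on the 14004 genes averaging 0.5 FPKM or more, with a mean-variance trend, two-sided, and with Benjamini-Hochberg adjustment. Symbols were matched for 21795 of the 21899 genes. FPKM times exon length gave whole fragments in every library for 21409 genes (97.8%, within 0.01 fragments), and voom was run on these. Ratios, and genes under the filter, were compared by exact two-sided permutation tests with scipy 1.17.1, and figures were drawn with matplotlib 3.10.9.

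The genes and lists were chosen with earlier results of these data known. Named genes were the 9 members, called genes of 3 context lists (up to 3 per direction by p) with the 3 most abundant of each, up to 3 markers per list by mean FPKM, and the 10 genes most alike by Pearson correlation. Mcpt1, Tpsg1, Fcer1g, Ptpn6, Slc18a2, Aplnr, Tyr and the genes nearest to Kit were named outside this rule after their values were seen. Same-numbered PBS and OLG libraries deviated together (correlations 0.367, 0.427 and 0.428). PBS 1 with OLG 3 (0.457) and PBS 2 with OLG 4 (0.637), of unlike number, did so more. The labels do not say that the numbers pair animals. The reported fit held no block, and the replicate number as a block was an alternative. Alternatives tried were no filter, a filter at 1 FPKM, a pseudocount of 0.1, scaling to equal medians or totals, a GC correction by a spline with 5 degrees of freedom, array weights, 2 groups only, voom, the replicate block with and without GC correction, and each library left out. The form of the GC correction that keeps each library's mean was added after seeing the data.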

Additional observations from a re-analysis of the deposited data

Results flagged for a closer look

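Among 24 sets of 4 libraries of the same group, made of the 9 genes and 3 ratios, 1 held a library that stood apart from the others by Dixon's criterion, where chance alone sets apart about 1 in 20. Tpsab1 in OL 34 was 0.937 FPKM, while the other 3 libraries of the group began at 0.686 FPKM, and its gap to the nearest library was 0.910 of the range of the group. The value rests on 31 fragments against 23 to 24 in the other libraries.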

How the results depend on the processing

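Over the alternatives listed above, the number of genes called for OL against PBS was 2 except for 1 with the GC correction (Kit) and 6 with array weights, and 1 to 3 with each library left out (1 without PBS 1). With the filter at 1 FPKM the 2 genes were Hdc and Kit, since Ms4a2 was under it. For OLG against OL it was 1 except for 0 with the GC correction, and 0 to 1 with a library left out. For OLG against PBS it was 0 except for 1 with the GC correction (Cpa3), 4 with array weights (Cpa3, Hdc, Kit and Ms4a2) and 2 with the replicate block and GC correction (Cpa3 and Kit), and 0 to 1 with a library left out. Of all 14004 genes tested, array weights called 7916 for OL against PBS and 2557 for OLG against PBS. The replicate block alone changed no call (0 genes). The GC correction that keeps each library's mean, chosen after seeing the data, gave 1, 0 and 1 genes in the 3 comparisons, the same numbers as the other form.

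Over all genes tested, scaling to the same FPKM total moved the median for OL against PBS from −0.015 to −0.15 and the calls from 2231 higher and 3096 lower to 1232 and 4570. For OLG against OL, 966 genes were called higher and 254 lower, 2026 and 155 with the same FPKM total, 344 and 354 with the same median and 34 and 22 with the GC correction. For OLG against PBS, 288 and 115 became 250 and 243 with the same FPKM total, 30 and 9 with only the 2 groups fitted and 46 and 16 with the replicate block.

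Signs changed for uncalled genes, and the cause was not tested. For OL against PBS, Cpa3 was −0.018 with the same FPKM total, −0.32 with the GC correction and −0.30 with its added form. For OLG against OL, Ms4a2 was 0.10 with the GC correction and 0.12 with its added form, Hdc was 0.0079 with the same FPKM total, and Kit, at 0.00 as reported, was −0.00126 with a pseudocount of 0.1, −0.046 with the same median and −0.00727 with the GC correction. For OLG against PBS, Tpsb2 was −0.013 with the same FPKM total, −0.33 with the replicate block and −0.25 with block and GC correction. Tpsab1 was −0.11 with a pseudocount of 0.1, −0.25 with voom, −0.24 with the block and −0.18 with block and GC correction, and Mcpt4 was −0.035 with block and GC correction. The ratio of tryptases to chymases for OLG against OL was 0.10 with 1 FPKM added.

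With each library left out, ranges that crossed 0 for OL against PBS were −0.11 to 0.31 for Cpa3, −0.51 to 0.16 for Cma1 and −0.13 to 0.91 for Tpsb2, and for OLG against OL −0.14 to 0.22 for Kit. For OLG against PBS they were −0.10 to 0.59 for Mcpt4, −0.37 to 0.68 for Tpsb2 and −0.24 to 0.23 for Tpsab1. Ratios that crossed 0 were tryptases to chymases (−0.021 to 1.11, −0.53 to 0.089 and −0.24 to 0.89 for OL against PBS, OLG against OL and OLG against PBS), Ms4a2 to Cpa3 for OLG against OL (−0.00938 to 0.36) and Kit to Cpa3 for OLG against PBS (−0.68 to 0.14). PBS 1 correlated best with OLG 3 (0.457) and PBS 2 with OLG 4 (0.637). Depth limits Fcer1a, with 1 to 12 fragments per library, and the tryptases, with 3 to 98.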
